A study of Mus musculus with 16 samples.

Results

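The microphthalmia/transcription factor E (MiT/TFE) family was followed through whole epididymal white adipose tissue (eWAT) of mice. Its members were taken by symbol from a table of FPKM values (fragment counts scaled to transcript length and library size), and all 4 listed genes, Mitf, Tfeb, Tfe3 and Tfec, had a row among the 20101 genes of the table. The 16 libraries came from 4 groups of 4 mice, all 21 weeks old: WT on a chow diet of 5% fat, ApoA4 knockdown on the same chow, WT on a high fat diet (HFD) of 60% fat, and ApoA4 knockdown on HFD. The HFD was given from 5 weeks of age. Sample titles call the knockdown group KO, and the groups are called WT-labelled and KO-labelled here. Strain, sex and the way ApoA4 was reduced were not given in the sources used here.

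MiT/TFE proteins are basic helix-loop-helix leucine zipper transcription factors that bind DNA as homodimers or as heterodimers with each other. They bind E-box sequences in the promoters of lysosomal and autophagy genes, the CLEAR network (coordinated lysosomal expression and regulation). TFEB, TFE3 and MITF are controlled largely at the protein level: mTORC1 at the lysosome phosphorylates them, 14-3-3 proteins then hold them in the cytoplasm, and starvation or lysosomal stress lets calcineurin dephosphorylate them, after which they enter the nucleus. MITF is also the master regulator of melanocytes and acts in mast cells and osteoclasts, and TFEC is best known from cells of the macrophage lineage. RNA levels, the only measure here, do not show where the proteins were or whether they were active.

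On the reference genome GRCm38.p6 with the GENCODE M21 annotation, Mitf (Entrez 17342) spans chr6:97807052-98021349 on the plus strand and Tfec (Entrez 21426) lies far from it on the minus strand at chr6:16833373-16898441. Tfeb (Entrez 21425) spans chr17:47737030-47792419 on the plus strand, and Tfe3 (Entrez 209446) spans chrX:7762560-7775202, also on the plus strand. No exon of the 4 genes overlapped an exon of another annotated gene. Mitf has 8 annotated transcripts with 7 start sites, among them the forms known from melanocytes and from other tissues, and the FPKM values are per gene and do not separate them.

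Some properties of the libraries bear on what follows. Summed FPKM lay between 413167 and 468186, and read depth is unknown, since the table holds no counts. Apoa4 RNA was not lower in the KO-labelled libraries: it was 0.09 to 0.29 FPKM in WT-labelled and 1.96 to 5.96 FPKM in KO-labelled chow libraries, and 0 to 0.29 against 4.93 to 9.63 FPKM on HFD, so the labels are used as given and a KO-minus-WT direction is one between labels. Summed FPKM of 14 adipocyte markers was 18423 to 42033 on chow and 3560 to 19506 on HFD, with all 14 detected in every library. Genes typical of the epididymis, which lies against this fat pad, summed to 13894 FPKM in KO-labelled chow replicate 2, 5436 in KO-labelled HFD replicate 4 and 341 in KO-labelled HFD replicate 2, and to at most 40.2 in the other 13 libraries. The 16 macrophage markers, none at 0 in any library, summed to 1188 to 1691 FPKM on chow, 2302 to 8974 in WT-labelled HFD and 3205 to 10603 in KO-labelled HFD libraries.

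Tfe3 was the most abundant member and Tfec the least abundant in 16 of 16 libraries on the FPKM scale, which is per transcript length. Mitf stood above Tfeb in 13 of 16 libraries, and Tfeb was the higher of the pair in KO-labelled chow replicate 2 and in WT-labelled HFD replicates 2 and 4. In WT-labelled chow mice the mean levels were 13.8 ± 0.745 FPKM for Tfe3, 10.2 ± 1.11 for Mitf, 5.81 ± 0.513 for Tfeb and 0.508 ± 0.158 for Tfec (SD, n = 4). The ranges of these 4 levels did not overlap. In WT-labelled HFD mice the order of Mitf (15.6 ± 5.78 FPKM) and Tfeb (15.9 ± 6.36 FPKM) was not resolved beyond their spread (SD, n = 4).

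**Figure D1:**
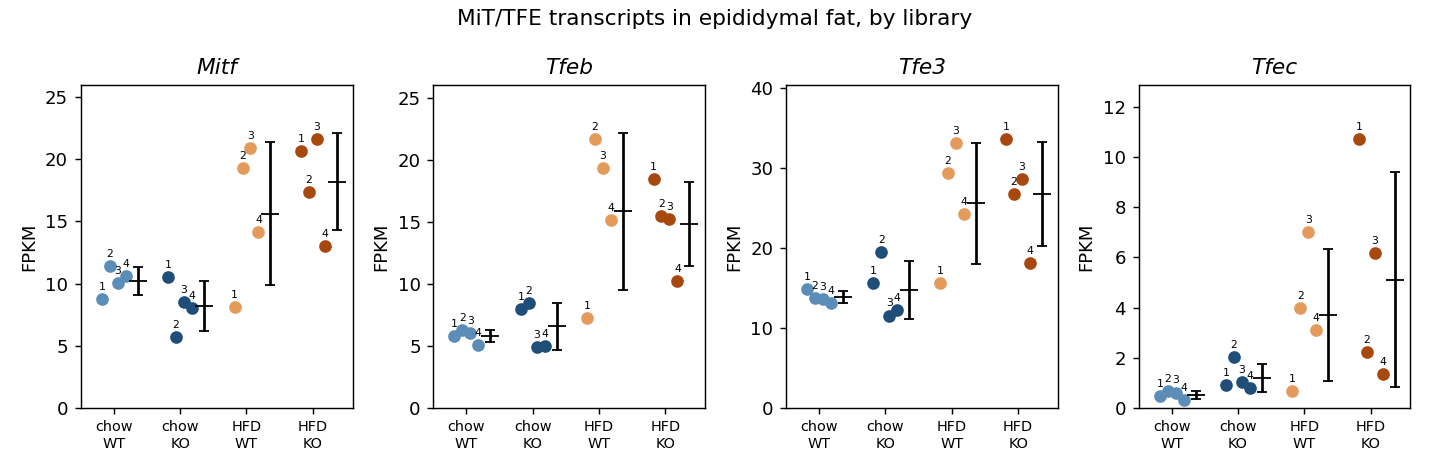
FPKM of Mitf, Tfeb, Tfe3 and Tfec in each of the 16 libraries, by diet and genotype label; points are mice and bars are group means with SD (n = 4). Tfe3 lies highest and Tfec lowest in every library, and WT-labelled HFD replicate 1 stays near the chow values (8.1 FPKM for Mitf, 7.23 for Tfeb, 15.65 for Tfe3 and 0.67 for Tfec).

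The first question was how the family's RNA differed between diets. In WT-labelled mice Tfeb, Tfe3 and Tfec were higher on HFD, by 1.21, 0.80 and 1.44 on the log2(FPKM + 1) scale, and in KO-labelled mice Mitf, Tfeb and Tfe3 were higher, by 1.06, 1.07 and 0.82. Thus 3 of 4 members passed the test upward in each comparison and none downward, with limma's moderated test across 12667 genes at a Benjamini-Hochberg adjusted p under 0.05. Such calls were common: 24.6% of all tested genes were called higher on HFD in WT-labelled mice and 23.5% in KO-labelled mice, and 17.2% and 15.3% were called lower. The median difference over all tested genes was 0.06 and 0.08. Tfec passed the filter on low values (1 FPKM in at least 4 libraries) through the HFD libraries, where it is high, so its count among the members is no support: of the 3 members above 1 FPKM in all 16 libraries, 2 passed in WT-labelled and 3 in KO-labelled mice. In whole tissue, fewer cells of a type and less RNA per cell cannot be told apart.

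Tfeb, the member best known as the starvation-responsive regulator of lysosome number, had 5.8, 6.3, 6.02 and 5.1 FPKM in WT-labelled chow mice and 7.23, 21.72, 19.33 and 15.17 FPKM in WT-labelled HFD mice. In KO-labelled mice it had 8, 8.44, 4.87 and 4.99 FPKM on chow and 18.49, 15.46, 15.21 and 10.23 FPKM on HFD. Every HFD library lay above every chow library of the same label. Such a separation upward was shown by 26.1% of all tested genes in WT-labelled and 17.5% in KO-labelled mice. Among the members it was shown by Tfeb, Tfe3 and Tfec in WT-labelled and by Mitf and Tfeb in KO-labelled mice. Tfec passed the filter through the HFD libraries, so its separation is no support. The ratio of mean FPKM of Tfeb was 2.73 in WT-labelled and 2.26 in KO-labelled mice. By limma the difference was 1.21 (SE 0.27, adjusted p = 0.00291) and 1.07 (SE 0.27, adjusted p = 0.00699) on the log2(FPKM + 1) scale.

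Tfe3, which overlaps with TFEB in its targets, had 14.83, 13.71, 13.62 and 13.05 FPKM in WT-labelled chow mice and 15.65, 29.32, 33.11 and 24.22 FPKM in WT-labelled HFD mice. The groups did not overlap, although HFD replicate 1 was within 1 FPKM of the highest chow library. In KO-labelled mice it had 15.57, 19.51, 11.54 and 12.19 FPKM on chow and 33.65, 26.72, 28.63 and 18.1 FPKM on HFD. Here the groups overlapped, since chow replicate 2 stood above HFD replicate 4, the 2 libraries richest in epididymal genes. The ratios of mean FPKM were 1.85 and 1.82, and limma gave 0.80 (SE 0.22, adjusted p = 0.0109) and 0.82 (SE 0.22, adjusted p = 0.0102) for the differences in log2(FPKM + 1).

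Mitf, the founding member, had 8.78, 11.42, 10.07 and 10.63 FPKM in WT-labelled chow mice and 8.1, 19.29, 20.91 and 14.17 FPKM in WT-labelled HFD mice. HFD replicate 1 lay below all 4 chow libraries and the other 3 lay above them. The difference of 0.49 (95% interval -0.03 to 1.02) did not pass the test (limma adjusted p = 0.121). Without HFD replicate 1, an alternative to the full fit, it was 0.76 and passed (limma adjusted p = 0.00747). In KO-labelled mice Mitf had 10.54, 5.67, 8.52 and 8.06 FPKM on chow and 20.67, 17.39, 21.65 and 13.02 FPKM on HFD, with no overlap, and rose by 1.06 (SE 0.25, limma adjusted p = 0.00413). The ratio of mean FPKM was 1.53 in WT-labelled and 2.22 in KO-labelled mice.

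Tfec, the member known from macrophages and osteoclasts, was the scarcest on chow. It had 0.47, 0.65, 0.61 and 0.3 FPKM in WT-labelled chow mice and 0.67, 4, 7.03 and 3.12 FPKM in WT-labelled HFD mice. The groups were separated only by the gap between 0.65 and 0.67 FPKM. In KO-labelled mice Tfec had 0.89, 2.04, 1.02 and 0.8 FPKM on chow and 10.74, 2.23, 6.16 and 1.34 FPKM on HFD, and the groups overlapped. Tfec reached 1 FPKM in 9 of 16 libraries, 2 of 8 on chow and 7 of 8 on HFD, while the other 3 members reached it in 16 of 16.

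The ratio of mean FPKM of Tfec was 7.30 in WT-labelled and 4.31 in KO-labelled mice, the highest among the 4 members, and the log2(FPKM + 1) scale understates it because the added 1 is above all 4 WT-labelled chow levels and close to the mean KO-labelled chow level of 1.19 FPKM. Limma gave 1.44 (SE 0.48, adjusted p = 0.0247) in WT-labelled mice. That call was lost without WT-labelled chow replicate 4 (1.37, limma adjusted p = 0.0590), HFD replicate 2 (1.34, limma adjusted p = 0.0645) or HFD replicate 3 (1.12, limma adjusted p = 0.0889). In KO-labelled mice the difference of 1.23 (SE 0.48) did not pass (limma adjusted p = 0.0525), and it passed at 1.77 without the 2 libraries richest in epididymal genes (limma adjusted p = 0.00936). It passed at 1.60 without the 2 HFD libraries lowest in macrophage markers (limma adjusted p = 0.00271).

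**Figure D2:**
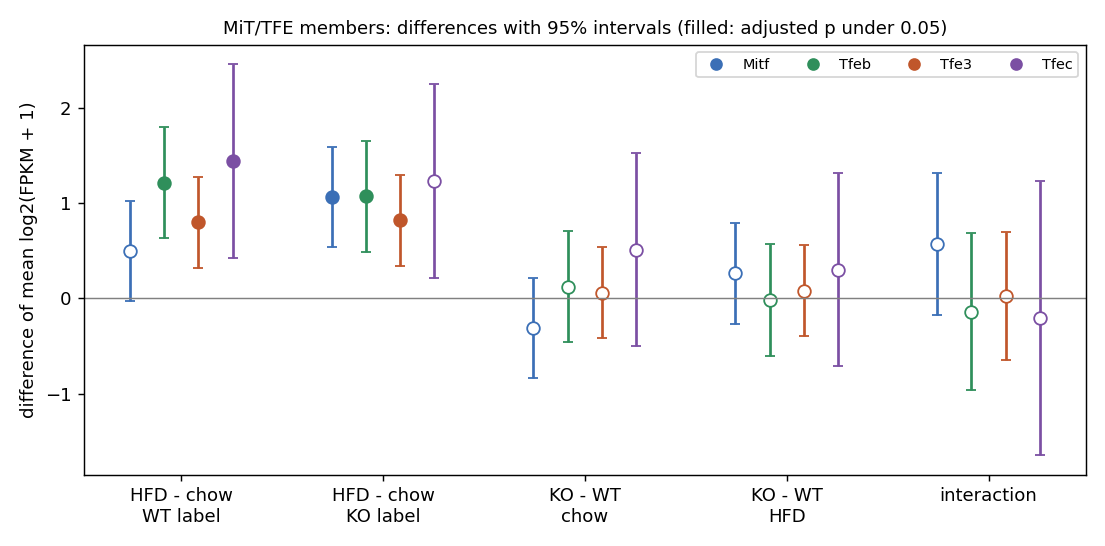
Log2(FPKM + 1) differences of the 4 members in the 5 comparisons, with 95% intervals from limma. Filled points passed the test at an adjusted p under 0.05. Both HFD-minus-chow differences lie above 0 for all 4 members, the interval of Mitf in WT-labelled mice reaching -0.03, and every interval of the KO-minus-WT comparisons and of the interaction crosses 0.

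The second question was whether the genotype labels differed within a diet. None of the 4 members passed on chow, where limma called 1.41% of all tested genes, and none passed on HFD, where it called 0.0316%. At an unadjusted p under 0.05 no member passed in either comparison, while 1861 and 1500 of all tested genes did. On chow the KO-minus-WT difference in log2(FPKM + 1) was -0.31 for Mitf (95% interval -0.84 to 0.22), 0.12 for Tfeb (-0.46 to 0.71) and 0.06 for Tfe3 (-0.42 to 0.54). Tfec differed by 0.51 (-0.51 to 1.53). Its FPKM ranges on chow did not overlap, with 0.8 as the lowest KO-labelled value and 0.65 as the highest WT-labelled one, a separation upward that 8.94% of all tested genes showed.

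On HFD the KO-minus-WT difference was 0.26 for Mitf (95% interval -0.27 to 0.79), -0.02 for Tfeb (-0.60 to 0.56), 0.08 for Tfe3 (-0.40 to 0.56) and 0.30 for Tfec (-0.72 to 1.32). All 4 pairs of ranges overlapped. The difference between the diet effects of the 2 labels, fitted as an interaction, was largest for Mitf at 0.57 (95% interval -0.17 to 1.31, limma adjusted p = 0.645). No member passed this test, which called 0.292% of all tested genes. The diet difference of Mitf that passed in KO-labelled and missed in WT-labelled mice was therefore not resolved as a difference between labels. The intervals of the KO-minus-WT differences span 0 with room on both sides, so that they do not show the labels to be alike.

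The make-up of the family's RNA was compared as well, and no difference in it passed after adjustment. Expressed as a share of the summed FPKM of the 4 members, Mitf held 33.7% ± 3.20 in WT-labelled chow mice and 25.6% ± 0.465 on HFD, and Tfeb held 19.1% ± 1.06 and 25.7% ± 2.85 (SD, n = 4). Tfe3 held 45.5% ± 2.91 and 43.2% ± 4.37, and Tfec held 1.66% ± 0.469 and 5.44% ± 2.71 (SD, n = 4). In WT-labelled mice the 4 HFD shares of Mitf all lay below the chow shares, and those of Tfeb and Tfec all lay above them. Each of these reached the smallest p that an exact permutation test of 4 against 4 can give (two-sided p = 0.0286), and none passed after adjustment over the 16 share tests (exact test, adjusted p = 0.0914).

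In KO-labelled mice the shares on chow and HFD were 27.5% ± 7.78 and 28.4% ± 2.66 for Mitf, 21.1% ± 2.51 and 23.1% ± 1.72 for Tfeb, 47.6% ± 4.85 and 41.5% ± 1.60 for Tfe3 and 3.82% ± 1.39 and 7.05% ± 4.59 for Tfec (SD, n = 4). The wide spread of Mitf on chow came from KO-labelled chow replicate 2, the library richest in epididymal genes, in which Mitf held 15.9% against 30.1% to 32.8% in the other 3. Without it the HFD-minus-chow difference in the Mitf share changed from 0.949 to -2.90 percentage points. In the same library Tfec held 5.72% and Tfe3 54.7%. The HFD shares of Tfe3 in KO-labelled mice all lay below the chow shares, and on chow the Tfec shares of KO-labelled mice all lay above those of WT-labelled mice, each with the same smallest p and the same adjusted p by the exact permutation test.

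**Figure D3:**
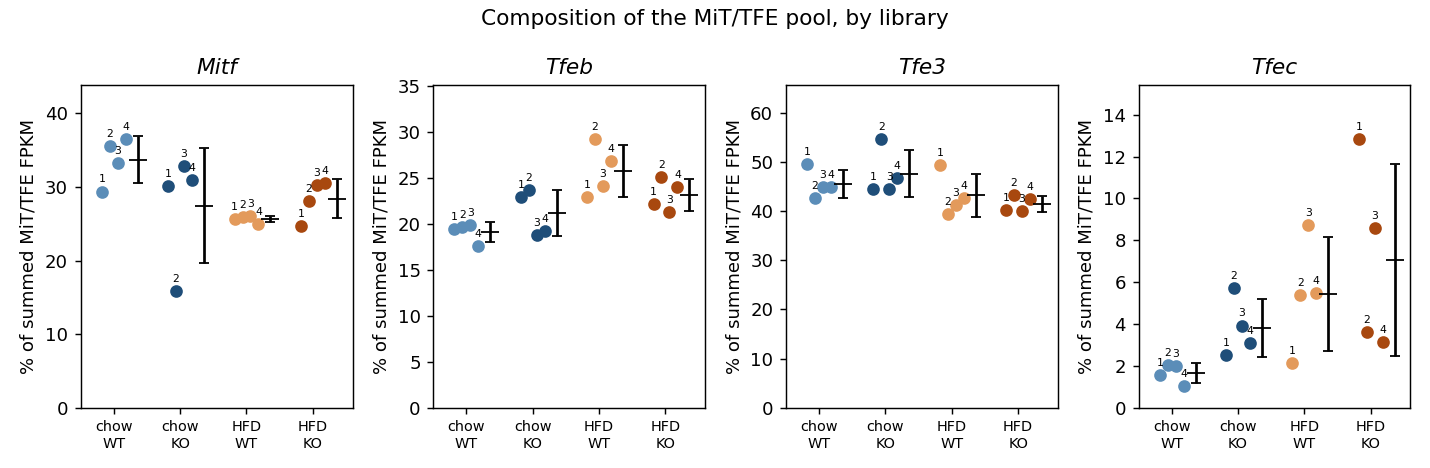
Share of each member in the summed FPKM of Mitf, Tfeb, Tfe3 and Tfec, in percent, for each of the 16 libraries. In WT-labelled mice Mitf takes 33.7% on average on chow and 25.6% on HFD, and KO-labelled chow replicate 2 stands apart with 15.9%.

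The HFD libraries did not form a tight group. WT-labelled HFD replicate 1 and KO-labelled HFD replicate 4 were the lowest 2 of the 8 HFD libraries for each of the 4 members, and also for summed macrophage markers (2302 and 3205 FPKM, the next library having 4924). Among the other 6 the order differed: Tfeb was highest in WT-labelled replicate 2, Mitf in KO-labelled replicate 3, and Tfe3 and Tfec in KO-labelled replicate 1. Over the 8 HFD libraries, Pearson's r between a member and the mean log2 level of the 16 macrophage markers was 0.93 for Mitf, 0.88 for Tfeb, 0.96 for Tfe3 and 0.99 for Tfec, with Spearman's rho of 0.88, 0.74, 0.95 and 1.0. Leaving out the 2 lowest libraries gave r of 0.78, 0.42, 0.86 and 0.99, so that of Tfeb rested on those 2. For mast cell markers r was 0.73 for Tfeb and 0.87 to 0.90 for the others, and without the 2 farthest libraries it was 0.27 for Tfeb and 0.65 to 0.74 for the others. For adipocyte markers r was -0.93 to -0.80, and -0.88 to -0.79 without the 2 farthest. These are descriptions over 8 libraries that pool the 2 labels, and both axes of each pair come from the same library.

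Over the 8 chow libraries the relation was different. There Pearson's r with the macrophage markers was 0.54 for Mitf, -0.04 for Tfeb, -0.02 for Tfe3 and -0.67 for Tfec, and rested in part on KO-labelled replicates 2 and 3, without which it was 0.01, -0.07, 0.18 and -0.34. The difference between the diets in these relations was not tested.

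**Figure D4:**
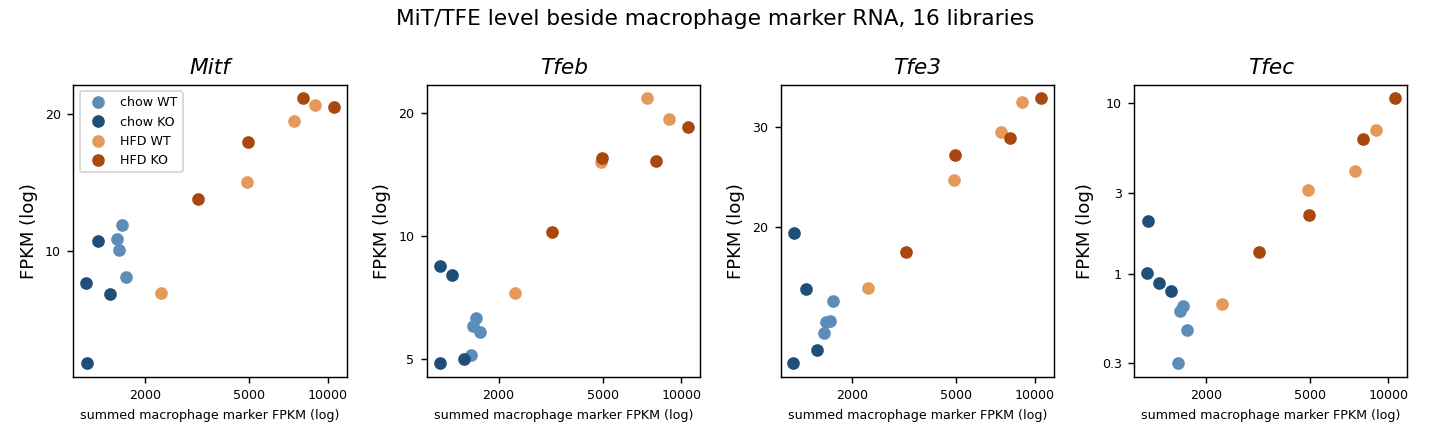
FPKM of each member (log axis) against the summed FPKM of 16 macrophage markers (log axis) in the 16 libraries, coloured by group. On HFD the members climb with the marker sum, from 2302 FPKM in WT-labelled replicate 1 to 10603 FPKM in the highest KO-labelled library, and the chow libraries lie bunched between 1188 and 1691 FPKM.

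The members were also set against the macrophage markers. The mean log2 level of these markers rose from 5.46 to 6.83 in WT-labelled and from 5.19 to 7.01 in KO-labelled mice. That rise is subtracted from each member and largely sets the signs, which are therefore no support for a lag behind macrophages. No member passed a test upward, and 7 of the 8 differences were negative. The level of a member minus the mean log2 level of the 16 markers changed from chow to HFD by -0.87 for Mitf, -0.15 for Tfeb, -0.57 for Tfe3 and 0.08 for Tfec in WT-labelled mice, and by -0.76, -0.75, -1.0 and -0.59 in KO-labelled mice. On this scale the rise of Tfec is understated, since the added 1 is above all 4 of its WT-labelled chow levels. Its ratio of mean FPKM was 7.30 in WT-labelled and 4.31 in KO-labelled mice, so its values here do not show that it lagged the markers. By exact two-sided permutation tests of 4 against 4, adjusted over these 8 comparisons, the adjusted p was 0.0571 for Mitf and Tfe3 in both labels. It lay between 0.0914 and 0.657 for the others, so none passed. The values depend on the markers. Against 12 markers of lipid-associated macrophages, which include the targets Gpnmb, Lipa and Atp6v0d2, all 8 differences were negative, from -3.28 to -2.33. Tfec in WT-labelled mice turned from 0.08 to -2.33. The mean log2 level of these 12 markers rose from 4.87 to 8.64 in WT-labelled and from 4.62 to 8.37 in KO-labelled mice. That rise was larger than the rise of any member, so subtracting it fixed the negative signs in advance. All 8 differences passed (exact permutation adjusted p = 0.0286, the smallest possible). For the same reason these calls are no support for a lag behind macrophages. Of the 16 general markers, 13 rose in WT-labelled and 14 in KO-labelled mice by limma, beside 24.6% and 23.5% of all tested genes. The scavenger receptor gene Cd163 fell in both labels, by 1.70 and 0.84. A mean over all cells of the tissue cannot give a level per macrophage.

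Other cells known to use MITF were also looked at. Mast cell markers, of which 8 of 9 had a row, summed to 26.0 to 46.5 FPKM in WT-labelled chow, 35.2 to 90.3 in KO-labelled chow, 24.2 to 266 in WT-labelled HFD and 81.3 to 313 in KO-labelled HFD libraries. Of 7 tested, 1 rose in WT-labelled mice, Cpa3, a mast cell protease, by 1.88, and 3 rose in KO-labelled mice, Cpa3 by 1.93, the protease gene Tpsb2 by 1.83 and the IgE receptor subunit Fcer1a by 1.38. Fcer1a reached 1 FPKM in 1 of 8 chow and 7 of 8 HFD libraries and passed the filter through the latter. The count in WT-labelled mice stands beside 24.6% of all tested genes called higher, and that in KO-labelled mice beside 23.5%. The 10 melanocyte markers summed to only 1.44 to 4.35 FPKM in any library, with Tyrp1, an enzyme of pigment synthesis, at most 0.03 FPKM. The part of mast cells and macrophages in the members' diet differences was not tested beyond the values above.

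Beyond the family itself, the genes that followed each member most closely over the 16 libraries were found by Pearson's r of log2(FPKM + 1). Between members r was 0.98 for Tfeb with Tfe3, 0.93 for Tfe3 with Tfec, 0.89 for Tfeb with Tfec, and 0.84, 0.82 and 0.78 for Mitf with Tfeb, Tfe3 and Tfec. After the 4 group means were taken out, the r of Tfeb with Tfe3 was 0.94 and the others lay between 0.60 and 0.87. Such values were shared by many genes: of 12258 genes ranked by r, Tfe3 was the 8th nearest to Tfeb and the 95th to Tfec, while Mitf was the 2022nd to Tfeb, the 2317th to Tfe3 and the 2200th to Tfec. The genes most like Tfeb were Vipas39 (r = 0.99), Cmtm3, Cln8, Psd4 and Mfsd11. Those most like Tfe3 were Eps8 (r = 0.99), St6galnac4, Nup62, Mtss1 and Dusp7.

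Mitf was matched most closely by Arhgap10 (r = 0.95), Plcl2, Myo5a, Mctp1 and Cd37, and Tfec by Snx27 (r = 0.97), Grk2, Snx6, Myd88 and Vps4b. Ranked by Spearman's rho instead, the 5 genes nearest to a member shared 2 names with this list for Mitf, 1 for Tfeb, 0 for Tfe3 and 1 for Tfec, so the order among the top genes is loose. All of these correlations are across libraries that also differ by diet, and they describe likeness only.

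The third question was what the family's known target genes did. Of 69 CLEAR genes tested, 45 rose and 5 fell on HFD in WT-labelled mice, and 48 rose and 2 fell in KO-labelled mice (limma, adjusted p under 0.05). The median difference was 0.70 and 0.89 in log2(FPKM + 1), against 0.06 and 0.08 over all tested genes. The counts stand beside 24.6% and 23.5% of all tested genes called higher and 17.2% and 15.3% called lower. The feedback targets Rragd and Ppargc1a are in them although each passed the filter through 1 diet. The groups of CLEAR genes differed among themselves: hydrolases, proton pump subunits and membrane proteins had positive medians, and autophagy genes had medians near 0. Macrophages are rich in lysosomes. Of the 16 macrophage markers, 13 rose and 1 fell in WT-labelled mice, and 14 rose and 1 fell in KO-labelled mice. Their part in the CLEAR counts was not tested.

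CLEAR genes were recognised in the literature partly by the E-box core CACGTG in their promoters, so its presence is a property of how such lists arose and no finding. In RefSeq windows of the same build, from 250 bases before to 50 after each start, CACGTG stood in 8.09% of all 27025 genes with a window and in 38.9% of CLEAR genes with one, 21 of 54. The share was 50% for hydrolases (9 of 18), 45.5% for membrane proteins (5 of 11), 44.4% for proton pump subunits (4 of 9), 28.6% for feedback targets (2 of 7) and 11.1% for autophagy genes (1 of 9). None of the 11 macrophage markers with a window held it. CACGTG reads the same on both strands. The longer palindrome TCACGTGA, which contains it, stood in 1.12% of all genes and in 20.4% of CLEAR genes (11 of 54).

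The windows of named target genes are shown because these are the sequences that the family's proteins can read, each as 30 bases 5′ to 3′ on the gene's strand with CACGTG in capitals, from RefSeq on GRCm38.p6.
Gla, chrX:134601215-134601244 (minus strand): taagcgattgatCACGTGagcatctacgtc
Gla, chrX:134601182-134601211 (minus strand): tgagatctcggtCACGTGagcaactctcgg
Glb1, chr9:114401018-114401047 (plus strand): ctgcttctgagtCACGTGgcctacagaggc
Naglu, chr11:101070009-101070038 (plus strand): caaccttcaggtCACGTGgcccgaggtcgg
Slc36a1, chr11:55204297-55204326 (plus strand): ggaatggagcggCACGTGacctgggctagg
Atp6v0b, chr4:117887348-117887377 (minus strand): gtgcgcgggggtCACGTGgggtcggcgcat
Atp6v0b, chr4:117887330-117887359 (minus strand): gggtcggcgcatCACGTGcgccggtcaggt
Atp6v1a, chr16:44139373-44139402 (minus strand): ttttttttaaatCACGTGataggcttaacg

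In the stretches printed for these 6 genes the core lies before the start: in Gla its first bases are 227 and 194 bases upstream, in Atp6v1a 131, in Naglu 73, in Glb1 48, in Slc36a1 31, and in Atp6v0b 36 and 18. The pairs in Gla and Atp6v0b are 2 copies in 1 window, and Slc36a1 has a second copy, not printed, that begins 3 bases upstream and runs across the start. Only stretches that end before the start are printed. Clcn7, also a named target, was left out for this reason. In its window CACGTG begins 15 bases upstream and again at base 8 after the start. Among the 21 CLEAR genes whose window held CACGTG, 14 rose and 1 fell in WT-labelled and 16 rose and none fell in KO-labelled mice, with medians of 0.59 and 0.78. Among the 33 whose window lacked it, 21 rose and 4 fell, and 23 rose and 2 fell, with medians of 0.70 and 0.76. The other 15 CLEAR genes had no window, and 10 and 9 of them rose. The 9 windows of the 4 members themselves (3 of Mitf, 3 of Tfeb, 2 of Tfe3 and 1 of Tfec) held neither CACGTG nor CATGTG, the core variant known from MITF sites in melanocytes.

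Hydrolases, the enzymes that break down lipids, sugars and proteins inside lysosomes, were tested as 24 genes, of which 19 rose and 1 fell in WT-labelled mice and 22 rose and none fell in KO-labelled mice. Over all tested genes, 24.6% and 23.5% were called higher and 17.2% and 15.3% lower. Lipa, the acid lipase that frees cholesterol and fatty acids, rose by 3.25 (limma adjusted p = 9.28e-05) and 3.39. Gla, the alpha-galactosidase A, rose by 2.74 and Gusb, the beta-glucuronidase, by 2.47 in WT-labelled mice. Man2b1, an alpha-mannosidase, rose by 1.15 and 1.68. Glb1, the lysosomal beta-galactosidase, rose by 1.21 and Naglu, an enzyme of heparan sulfate breakdown, by 1.10 in KO-labelled mice. The member that fell was the cathepsin Ctsf (-0.86, limma adjusted p = 0.00917).

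Proton pump subunits, which build the V-ATPase that acidifies the lysosome, rose in 14 of 14 in WT-labelled and in 12 of 14 in KO-labelled mice. Atp6v1g1 and Atp6v1h did not pass in the latter (0.51 and 0.35). The counts stand beside 24.6% of all tested genes called higher in WT-labelled and 23.5% in KO-labelled mice. Atp6v0a1, of the membrane part, rose by 2.37 (limma adjusted p = 1.64e-07) and 2.15 (limma adjusted p = 6.54e-07). Atp6v0b rose by 1.63 and 1.33, Atp6v1b2, of the catalytic part, by 2.04 in WT-labelled mice, and Atp6v1a by 1.66 in KO-labelled mice. Atp6v0d2, a subunit found mainly in macrophages and osteoclasts, had 2.35, 5.19, 4.27 and 3.51 FPKM in WT-labelled chow mice and 75.65, 317.65, 271.68 and 169.22 FPKM on HFD. In KO-labelled mice it had 0.9, 34.26, 1.23 and 1.04 FPKM on chow and 129.37, 227.37, 163.32 and 98.65 FPKM on HFD. Chow replicate 2 was again apart from its group, and both diet comparisons were free of overlap.

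Membrane proteins were tested as 12 genes, with 8 up in WT-labelled and 7 up in KO-labelled mice and none down. Over all tested genes, 24.6% and 23.5% were called higher and 17.2% and 15.3% lower. Gpnmb, a glycoprotein of lipid-laden macrophages and a direct MITF target, had 8.63, 10.32, 12.09 and 8.09 FPKM in WT-labelled chow mice and 259.08, 1933.99, 2561.87 and 650.14 FPKM on HFD. In KO-labelled mice it had 5.46, 26.26, 4.32 and 5.13 FPKM on chow and 711.76, 1253.66, 773.75 and 317.1 FPKM on HFD. Every HFD library lay above every chow library, and the highest chow library was KO-labelled replicate 2. Limma gave 6.49 (adjusted p = 1.20e-05) and 6.30 (adjusted p = 2.40e-05). Clcn7, a chloride-proton exchanger, rose by 1.27 and 1.36, Cd63, a tetraspanin, by 1.25 and Slc36a1, an amino acid transporter, by 1.17 in WT-labelled mice, and Npc1, the cholesterol exporter, by 1.55 and Scarb2 by 0.62 in KO-labelled mice.

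Autophagy genes were divided. Of 12 tested, 2 rose and 3 fell in WT-labelled mice (median -0.08) and 5 rose and 1 fell in KO-labelled mice. Among all tested genes 24.6% and 23.5% were called higher and 17.2% and 15.3% lower, and the counts are not read as a result about the group. Gabarapl1, an Atg8-family protein of the autophagosome, fell by 1.05 in WT-labelled mice (limma adjusted p = 0.000108), where it had 182, 203.92, 169.47 and 199.34 FPKM on chow and 91.96, 78.55, 95.16 and 97.74 FPKM on HFD. In KO-labelled mice the chow level was already lower, at 125.76, 107.76, 120.72 and 117 FPKM, against 74.42, 115.62, 92.65 and 119.97 FPKM on HFD, and the diet difference of -0.25 did not pass (limma adjusted p = 0.182). Map1lc3b, the LC3B gene, fell by 0.82 and 0.46, and Wipi1, of the early autophagosome, fell by 0.45 in WT-labelled mice. Vps18, of the vesicle tethering complexes, rose by 0.91 and 1.07 and Uvrag by 0.42 and 0.69, and Vps8 and Gabarap by 0.32 and 0.51 in KO-labelled mice. Sqstm1, the cargo receptor p62, rose by 0.76 in KO-labelled mice and had a difference of 0.29 in WT-labelled mice (limma adjusted p = 0.148).

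Feedback targets are genes the family switches on that in turn act on mTORC1 or on the family itself. Of 7 tested, 2 rose and 1 fell in each label. These counts are near the 24.6% and 23.5% of all tested genes called higher and the 17.2% and 15.3% called lower. They are no result about the group. Fnip2, a partner of folliculin (Flcn), had 4.87, 4.79, 5.59 and 4.43 FPKM in WT-labelled chow mice and 12.71, 38.48, 53.24 and 24.96 FPKM on HFD, and rose by 2.32 and 2.33 (limma adjusted p = 0.000373 and 0.000546). Rragd, the Rag GTPase most responsive to MiT/TFE proteins, was 0.14 to 0.28 FPKM in WT-labelled chow libraries and 0.52, 2.38, 2.85 and 1.79 FPKM on HFD, and rose by 1.19 and 1.13 (limma adjusted p = 0.0251 and 0.0344). It reached 1 FPKM in 1 of 8 chow and 7 of 8 HFD libraries and so entered the test through the diet in which it is high. KO-labelled chow replicate 2 had 3.84 FPKM of Rragd against 0.13 to 0.27 in the other 3. Flcn itself had differences of 0.14 and 0.33, neither past the threshold.

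Sesn2, a stress-induced inhibitor of mTORC1, fell by 1.91 in WT-labelled mice (limma adjusted p = 5.93e-05) and had a difference of -0.47 in KO-labelled mice (limma adjusted p = 0.138). Its chow levels were 29, 26.43, 24.98 and 31.77 FPKM in WT-labelled and 8.81, 10.96, 20.12 and 13.09 FPKM in KO-labelled mice, and its HFD levels were 4.51 to 9.03 and 6.67 to 12.23 FPKM. Ppargc1a, the coactivator PGC-1 alpha, fell by 0.96 in KO-labelled mice (limma adjusted p = 0.0161). It reached 1 FPKM in 7 of 8 chow and 3 of 8 HFD libraries and so passed the filter through chow, where it is high.

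**Figure D5:**
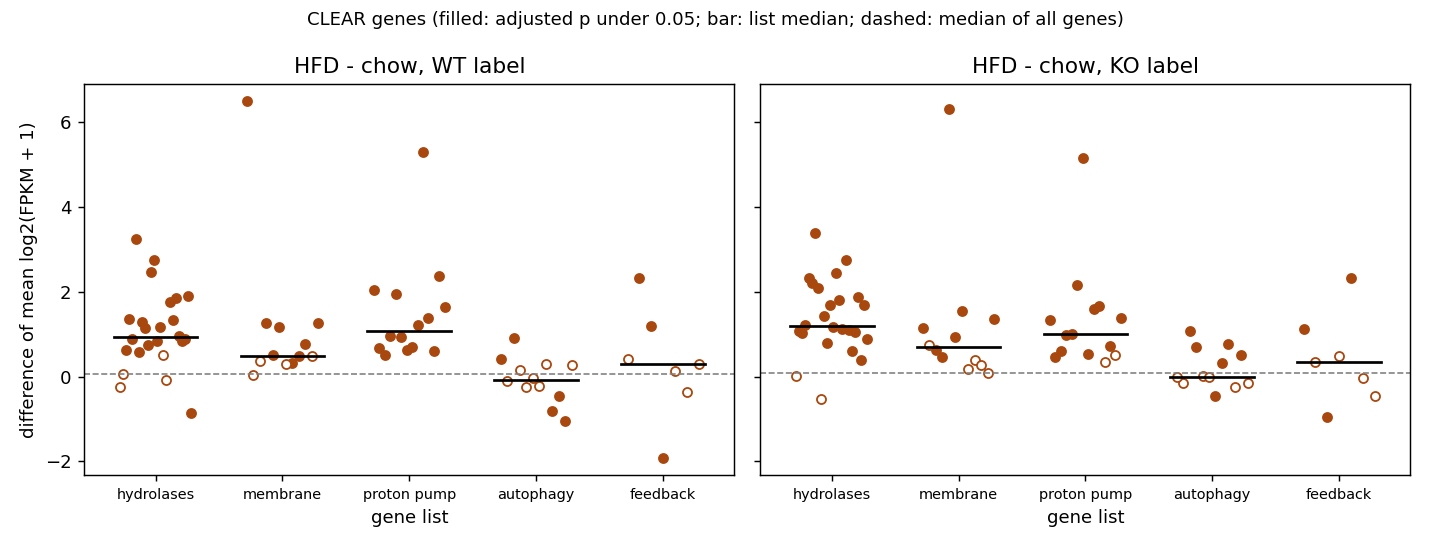
Log2(FPKM + 1) differences between HFD and chow for the CLEAR genes by group and genotype label, each point a gene (filled where it passed the test), each bar the group's median and the dashed line the median of all tested genes. Proton pump subunits and hydrolases lie mostly above 0 (medians 1.08 and 0.93 in WT-labelled mice) and autophagy genes lie around 0 (median -0.08).

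Between the genotype labels, 3 of the 69 CLEAR genes passed on chow, all lower in KO-labelled mice, where 0.979% of all tested genes were called lower. They were Gaa, the acid alpha-glucosidase (-0.62, limma adjusted p = 0.0228), Gabarapl1 (-0.67, limma adjusted p = 0.0311) and Sesn2 (-1.08, limma adjusted p = 0.0365). All 24 hydrolases had a negative KO-minus-WT value on chow, and the median over the 69 genes was -0.14, while the median over all tested genes was 0.09. Summed macrophage markers were also lower there, 1188 to 1470 FPKM against 1564 to 1691, and the part of this in the CLEAR values was not tested. The count of 3 became 6 when the 2 groups were fitted alone and 9 with array weights. It fell to 0 without WT-labelled chow replicate 2, 3 or 4 or KO-labelled chow replicate 1, and to 1 without WT-labelled replicate 1 or KO-labelled replicate 2 or 4. Thus at most 1 call remained when any of these libraries was left out. On HFD none of the 69 passed by limma, with 4 at an unadjusted p under 0.05, beside 1500 of all 12667 tested genes. The interaction called none of the 69, with 6 at that level, beside 1284 of all 12667 tested genes.

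Genes that control the family's proteins were compared as well. Of 20 tested genes of mTORC1, the Rag GTPases and the folliculin complex, 7 rose and 2 fell in WT-labelled mice and 2 rose and none fell in KO-labelled mice. With 24.6% and 23.5% of all tested genes called higher, the count in KO-labelled mice is the smaller share, and neither is read as a result about the group. Deptor, an inhibitory mTOR partner, rose by 1.53 in WT-labelled mice (limma adjusted p = 0.000109) and differed by 0.40 in KO-labelled mice, where it did not pass. Lamtor1 and Lamtor3, of the Ragulator scaffold at the lysosome, rose by 0.76 and 0.89 in WT-labelled mice, and Mtor and Tsc2 fell by 0.43 and 0.35. The 2 that rose in KO-labelled mice were Fnip2 and Rragd, both also counted among the feedback targets, and Rragd entered the test through HFD. Whether these diet effects differed between labels cannot be read from the counts. Fitted as an interaction, none of the 20 passed by limma, so no difference between labels was resolved.

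Of 15 tested calcineurin, 14-3-3 and other regulators, 6 rose and 2 fell in WT-labelled and 5 rose and 2 fell in KO-labelled mice. Of all tested genes, 24.6% and 23.5% were called higher and 17.2% and 15.3% lower. The counts are not read as a result about the group. Spi1, which encodes the myeloid factor PU.1, a known partner of MITF in the osteoclast lineage, had 20.84, 15.65, 14.6 and 12.24 FPKM in WT-labelled chow mice and 41.67, 158.27, 171.18 and 82.89 FPKM on HFD, and rose by 2.59 and 3.28 (limma adjusted p = 0.000130 and 4.06e-05). Ppp3ca, a catalytic subunit of calcineurin, rose by 0.61 and 0.71, and the 14-3-3 genes Ywhaz and Ywhah rose by 1.03 and 1.38 in WT-labelled mice and by 0.81 and 1.34 in KO-labelled mice. Zkscan3, described as a repressor of autophagy genes, fell by 0.57 and 0.45 (limma adjusted p = 0.00505 and 0.0197). The calcineurin subunit gene Ppp3cb fell by 0.40 in WT-labelled mice and the 14-3-3 gene Ywhab by 0.77 in KO-labelled mice.

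Osteoclast-type targets of the family, of which 10 of 13 passed the filter, rose in 6 and fell in none in WT-labelled mice and rose in 7 and fell in 1 in KO-labelled mice. Beside these counts, 24.6% and 23.5% of all tested genes were called higher and 17.2% and 15.3% lower. Ctsk, the collagen-degrading cathepsin K, rose by 3.87 and 3.52 and Tcirg1, a V-ATPase subunit of osteoclasts and immune cells, by 3.03 and 3.0. Dcstamp, a cell fusion protein, rose by 2.36 in WT-labelled mice, having entered the test through HFD libraries alone, since all 8 chow libraries were under 1 FPKM. Its place in the count is therefore no support. Ostm1, the partner of Clcn7, rose by 0.88 and 0.72. The gene that fell in KO-labelled mice was Acp5, tartrate-resistant acid phosphatase (-1.0, limma adjusted p = 0.0424), which had a difference of -0.83 in WT-labelled mice (limma adjusted p = 0.0831). Clcn7 and Atp6v0d2 belong to this group and to the CLEAR groups, so the counts share 2 genes.

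Other transcription factors that bind CACGTG formed the last group. Of 16 tested, 3 rose and none fell in WT-labelled mice and 3 rose and 1 fell in KO-labelled mice. These counts are smaller shares than the 24.6% and 23.5% of all tested genes called higher, and are no result about the group. Max, the partner of the Myc family, rose by 0.72 and 0.66 and its relative Mlx by 0.58 in WT-labelled mice, with Arntl, a clock factor, rising by 0.49. Mlxipl, the carbohydrate-responsive factor ChREBP, fell by 1.64 in KO-labelled mice, where Mnt and Mlxip rose by 0.77 and 0.61.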

How the data were processed

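Per the labels, eWAT RNA came from a TRIzol extraction, an MGIEasy kit gave the libraries, and a BGI-seq machine read them. The authors deposited FPKM values per gene. STAR 2.7 and the builds GRCm38.p6 and mm10 are named in the submitters' processing notes; for the quantifier, annotation, filter and strand setting, nothing was given in the sources used here. Besides genes, the table held 14408 circular RNA rows and 1 row without a name, which were left out. FPKM values were taken as log2(FPKM + 1), and genes with at least 1 FPKM in at least 4 libraries were kept (12667 of 20101). Group means were fitted over all 16 libraries with limma 3.58.1 in R 4.3.3 with a variance trend, and p-values were adjusted by Benjamini-Hochberg over all tested genes for each comparison. The 2 diet comparisons use different mice, but each shares samples with the genotype comparisons and the interaction. Shares and levels relative to macrophage markers were compared with exact two-sided permutation tests. Genes named are the 4 members, Apoa4, up to 4 genes of each list with the smallest p among those past the threshold in each diet comparison, and the 5 genes most like each member; others (among them Ctsf, Gaa, Flcn, Tyrp1, Atp6v1g1, Atp6v1h, Wipi1, Vps8, Gabarap, Mtor, Tsc2, Ppp3cb, Ywhab and values of a named gene in the other label) were chosen after their values were seen. The members and lists were chosen with earlier results of these data known. Promoter windows are from RefSeq on GRCm38.p6 and gene positions from GENCODE M21. The fitting script was tested on simulated data.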

Additional observations from a re-analysis of the deposited data

How the results depend on the processing

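Alternatives were other scalings (median of ratios, constant sum, quantile), pseudocounts of 0.1 and 0.5, no filter, a mean of at least 5 FPKM (which leaves Tfec untested), array weights, a replicate block, the 2 groups alone, a fit without the variance trend and each library left out. Added after the data were seen were omissions of the 2 or 3 libraries with epididymal genes and of the 2 HFD libraries lowest in macrophage markers. The HFD increases of Tfeb and Tfe3 in both labels and of Mitf in KO-labelled mice kept their call under all of these. Members called ranged from 2 to 4 in WT-labelled and from 3 to 4 in KO-labelled mice when 1 library was left out. Mitf in WT-labelled mice passed with array weights (0.66, limma adjusted p = 0.00140) and without the 2 HFD libraries (0.76). Over its alternatives, Tfec in KO-labelled mice passed with constant sum (1.25), array weights (1.82) and without the 3 epididymal libraries (2.27), and also without chow KO 2, HFD WT 1, HFD WT 3, HFD KO 2 or HFD KO 4. CLEAR genes differing between labels on chow (3) were 1 with the replicate block, 9 with array weights, 6 with the 2 groups alone, 5 without the 2 HFD libraries, and 0 to 4 with 1 library left out; by interaction (0) they were 5 with array weights and 0 to 1 with 1 library left out. Replicate numbers did not pair the samples: correlations of same-numbered deviations ran from -0.63 to 0.37 over 16 pairs in 4 comparisons, some pairs of every comparison lay near or below 0, and 4 of 16 matched their own number best. In KO-labelled diet pairs they were 0.06, 0.19, 0.25 and -0.11, and the replicate block changed no call of a member. Levels relative to lipid-associated in place of general macrophage markers changed by -3.28 for Mitf, -2.56 for Tfeb, -2.97 for Tfe3 and -2.33 for Tfec (reversed) in WT-labelled mice and by -2.70, -2.69, -2.94 and -2.53 in KO-labelled mice (exact permutation adjusted p = 0.0286). The large rise of these markers fixed those signs in advance, so they are no support. Other signs turned among values that had not passed. Leaving out 1 library turned the share differences of Mitf between diets in KO-labelled mice (-2.90 to 2.74 percentage points), of Tfe3 between labels on chow (-0.285 to 3.44) and on HFD (-2.99 to 0.344) and of Tfec between labels on HFD (-0.322 to 2.92). For the log2 differences between labels, values that turned were, for Tfe3 on chow, -0.039 (median of ratios), -0.0023 (quantile), -0.092 (array weights) and -0.080 (both epididymal omissions), for Tfe3 on HFD -0.064 (median of ratios), and for its interaction -0.025 (median of ratios), -0.031 (constant sum) and -0.016 (without the 2 HFD libraries). For Tfeb they were -0.064 on chow (array weights), 0.14 and 0.17 on HFD and 0.13 and 0.17 for the interaction (2 and 3 epididymal libraries omitted). For the Tfec interaction they were 0.090 (array weights), 0.33 and 0.83 (the same omissions). With 1 library left out, ranges were -0.0025 to 0.42 for Mitf on HFD, -0.080 to 0.16 for Tfe3 on chow, -0.13 to 0.25 for Tfe3 on HFD, -0.19 to 0.19 for its interaction, -0.33 to 0.16 for Tfeb on HFD, -0.45 to 0.035 for its interaction, -0.13 to 0.67 for Tfec on HFD and -0.64 to 0.16 for its interaction. The cause was not tested. Quantile normalization moved the median of all genes by -0.10 (WT-labelled diet), -0.15 (KO-labelled diet) and -0.11 (labels on HFD), and median of ratios by -0.13 (labels on HFD). The share of diet calls that were higher was 58.8% in WT-labelled mice, against 52.9% (median of ratios), 66.6% (constant sum) and 45.8% (quantile), and 60.5% in KO-labelled mice, against 49.7%, 63.5% and 42.3%. Read depth is unknown, so the precision of low values such as Tfec on chow cannot be given.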

Other observations

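The set of lipid-associated macrophage markers, genes of macrophages that take up lipid in obese fat, held 12 tested genes, of which 10 rose and none fell on HFD in each label by limma. Over all tested genes, 24.6% in WT-labelled and 23.5% in KO-labelled mice were called higher, and 17.2% and 15.3% lower. The set shares 3 genes, Gpnmb, Lipa and Atp6v0d2, with the CLEAR groups, and none of its 9 genes with a RefSeq window held CACGTG there.

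Among melanocyte genes, which MITF controls in pigment cells, Mlana, a melanosome protein, was listed at 0 in all 8 chow libraries. It had 0, 0.1, 0.49 and 0.46 FPKM in WT-labelled and 0.8, 2.11, 0.94 and 1.31 FPKM in KO-labelled HFD libraries. It was under the filter and was not tested. Trpm1, a channel gene of melanocytes and the retina, was at most 0.11 FPKM on chow and 0.04 to 0.28 FPKM in WT-labelled HFD libraries. In KO-labelled HFD libraries it had 0.1, 0.13, 0.13 and 0.99 FPKM. Dct, an enzyme of pigment synthesis, was the only melanocyte gene tested and was lower on HFD in KO-labelled mice (-0.88, limma adjusted p = 0.00788). It reached 1 FPKM in only 3 chow libraries and 1 HFD library, the filter's minimum, and so passed it mainly through chow, where it is high. Both Mlana and Trpm1 were named after their values were seen.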
